A study of Mus musculus with 2 samples.

Results

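Genes of the dorsal midline and of bone morphogenetic protein (BMP) signalling were examined in the brain of Plzf lu/lu mouse embryos, namely the BMP ligands Bmp4 and Bmp7, the homeobox factors Msx1, Msx2 and Msx3, the roof plate factor Lmx1a, and the inhibitors of differentiation Id1, Id2, Id3 and Id4. They were chosen by gene symbol, and every probe annotated with one of these symbols was included. All 10 genes were found, with 14 of the 56605 gene probes and 10 of the 37074 gene names on the array. RNA was hybridised to 2 Agilent mouse arrays with 60-base probes, and on each array wild type was labelled with Cy3 and lu/lu with Cy5. The tissue was brain at E10.5 by the sample labels and forebrain with midbrain by the methods. Wild type was C57BL/6, and the other channel was labelled only as luxoid, a strain whose Plzf gene (Zbtb16) carries a spontaneous germline nonsense change. The genetic background of the luxoid embryos and the number of embryos in a sample were not given in the sources used here. The dyes were not exchanged, so genotype, strain and dye cannot be told apart on these arrays. The labels call the arrays biological replicates, and each array holds 1 sample of each genotype.

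The roof plate is the strip of cells along the dorsal midline of the neural tube. It secretes BMP, GDF and Wnt proteins that pattern the dorsal progenitors on either side, and in the forebrain it gives rise to the cortical hem and the choroid plexus. BMP dimers bind receptor serine-threonine kinases, which phosphorylate Smad proteins, and Msx and Id genes are classic transcriptional targets of these Smads. Id proteins lack a DNA-binding region and hold back neuronal differentiation by binding E proteins, the partners that proneural factors need. None of these genes is restricted to the neural tube: Bmp4, Bmp7 and Msx genes are also expressed in surface ectoderm and head mesenchyme, and Id1 and Id3 in blood vessels. In RNA from whole tissue, fewer cells of a type and less RNA per cell cannot be told apart.

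A gene was counted as different when lu/lu exceeded wild type by more than 1.3-fold on both arrays, or was lower by more than 1.3-fold on both, and each gene was represented by its brightest probe. A gene was tested when its processed signal was above 200, with a signal-to-noise ratio of 5 or more, in all 4 channels, which 9 of the 10 genes met and Msx3 did not. Bmp4 alone was higher in lu/lu by this rule, 1 of 9 genes against 2.58% of the 10600 genes tested, and 0 of 9 were lower against 0.736% (3.32% in either direction). In limma with Benjamini-Hochberg adjustment, 0 of the 9 reached an adjusted p under 0.05, against 0.0283% of all genes that did so as higher and 0.0% as lower. At an unadjusted p under 0.05, 1 member was higher (Bmp4) and 1 was lower (Id3), against 15.7% and 12.0% of all genes tested. The log2 ratio of lu/lu to wild type was above 0 on both arrays for Bmp4 and Msx2, against 37.2% of all genes, and below 0 on both for Id1 and Id3, against 35.4%. It had opposite signs on the 2 arrays for Bmp7, Msx1, Lmx1a, Id2 and Id4, 5 of 9 genes against 27.4% of all genes. Over the 9 genes, the median of the log2 ratios was 0.23 on array 1 and -0.01 on array 2, and for their means over the arrays it was 0.11, beside 0.01 for all genes tested.

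**Figure D1:**
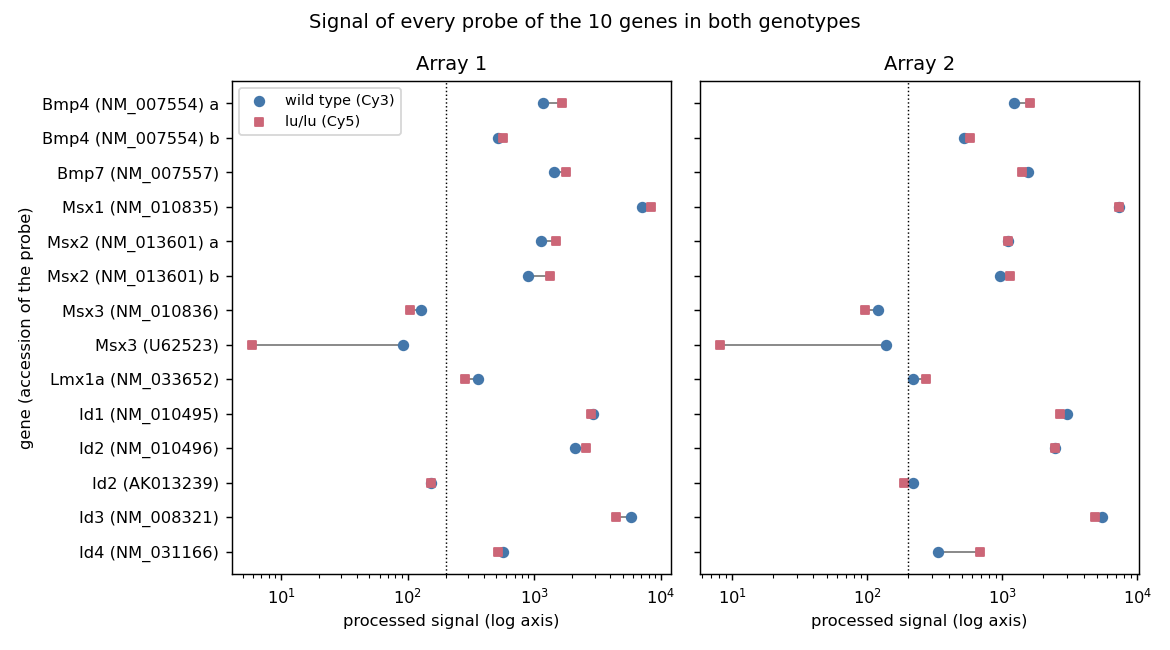
Processed signal (log axis) of the 14 probes in wild type (circles, Cy3) and lu/lu (squares, Cy5) on array 1 and array 2, with the signal minimum of 200 as a dotted line. Most pairs lie close together, and the U62523 probe of Msx3 shows the widest gap, from 91.7 to 5.89 on array 1 and from 137.6 to 8.16 on array 2.

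Bmp4 encodes a BMP ligand made at the dorsal midline of the early brain and in the ectoderm above it. Its brightest probe (NM_007554, chr14:47003391-47003450, minus strand, mm9) had a processed signal of 1179 in wild type and 1659 in lu/lu on array 1, and of 1217 and 1602 on array 2. Both lu/lu samples lay above both wild type samples, by 1.41-fold and 1.32-fold. The mean log2 ratio was 0.44 ± 0.07 (SD, n = 2 arrays), with a 95% confidence interval from 0.25 to 0.64 in limma and an adjusted p of 0.0575, short of the threshold. Of all genes tested, 2.90% had a higher mean ratio.

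The other Bmp4 probe lies within the same transcript record at chr14:47003802-47003861 on the minus strand, and its sequence is shown because it gave a smaller difference.

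Bmp4 (NM_007554), other probe: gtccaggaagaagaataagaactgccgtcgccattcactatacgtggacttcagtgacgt

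This probe read 518 in wild type and 572 in lu/lu on array 1, and 518 and 575 on array 2, which are log2 ratios of 0.14 and 0.15. The direction was the same as at the brighter probe, and the log2 ratio was smaller by 0.35 on array 1 and 0.25 on array 2. In the fit of single probes its adjusted p from limma was 0.246. With the mean over both probes the Bmp4 log2 ratio was 0.30, and with the trend of the ratios on probe GC content removed it was 0.39. In both cases Bmp4 was no longer beyond 1.3-fold on both arrays. Over the genes tested, the Spearman correlation of the log2 ratio with probe GC content was -0.38 on array 1 and -0.20 on array 2. The GC content was 38.3% at the brighter Bmp4 probe and 48.3% at the other. Its part in the gap between these probes was not tested. Which of the probes better represents the Bmp4 transcripts was not tested.

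Bmp7, a ligand that forms dimers with other BMPs and is made in roof plate, ectoderm and meninges, read 1439 in wild type and 1783 in lu/lu on array 1 but 1559 and 1409 on array 2 (NM_007557). The log2 ratios of 0.31 and -0.15 pointed in opposite directions, and the values of the genotypes overlapped. The mean was 0.08 with a 95% confidence interval from -0.22 to 0.38 (adjusted p in limma 0.683), so a difference within that interval could not be told from 0.

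Msx1 and Msx2 encode homeodomain repressors induced by BMP signalling in the dorsal midline, ectoderm and neural crest. Msx1 (NM_010835) read 7103 in wild type and 8307 in lu/lu on array 1, and 7295 and 7253 on array 2. The genotypes overlapped, and the log2 ratios were 0.23 and -0.01 (mean 0.11, adjusted p in limma 0.456). The brightest Msx2 probe (NM_013601) read 1131 and 1479 on array 1 and 1095 and 1106 on array 2, with log2 ratios of 0.39 and 0.02 (mean 0.20, adjusted p in limma 0.278). The other Msx2 probe read 888 and 1329 on array 1 and 966 and 1147 on array 2. Here both lu/lu samples lay above both wild type samples, with log2 ratios of 0.58 and 0.25 (mean 0.41), and the adjusted p from limma in the fit of single probes was 0.0797. At all 3 probes of Msx1 and Msx2 the log2 ratio was higher on array 1 than on array 2.

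Msx3 encodes the third Msx protein of the mouse, which is known from the dorsal neural tube. Both of its probes were dim, below the signal minimum in all channels, and they gave very different ratios. Their sequences are shown for that reason. The probe of NM_010836 lies at chr7:147233824-147233883 and that of U62523, a GenBank record, at chr7:147232855-147232915, both on the minus strand in mm9. The capitals mark bases 30 to 47, the codons of a motif in the DNA-recognition helix of the homeodomain, which a search of the translated probe found. For U62523 only bases 16 to 45 are given. The annotated interval of the U62523 probe spans 61 bases of the genome, against a probe length of 60, and the reason was not tested.

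Msx3 (NM_010836): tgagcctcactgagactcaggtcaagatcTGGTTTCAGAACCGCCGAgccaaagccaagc
Msx3 (U62523), part: aaagtgagagttgagcatctcagatctccc

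The NM_010836 probe, which holds the homeobox motif, read 126.7 in wild type and 104.6 in lu/lu on array 1, and 120.6 and 96.9 on array 2. It was well above background in all 4 channels, and both lu/lu samples lay below both wild type samples, with log2 ratios of -0.28 and -0.32. When genes well above background were tested in place of those above the signal minimum, its mean of -0.30 had an adjusted p in limma of 0.27. The U62523 probe read 91.7 in wild type and 5.89 in lu/lu on array 1, and 137.6 and 8.16 on array 2. In lu/lu it was well above background on array 2 only, where its signal was 16.9-fold lower than in wild type, a log2 ratio of -4.08. On array 1 the measured log2 ratio of this probe was -3.96. Set against the lowest lu/lu signal well above background on that array, its signal was at least 14.8-fold lower. For this the arrays, not the channels, were brought to 1 scale, so the bound is open to dye bias. It is approximate, since a floor at the lowest such signal gives the largest fold. Of 34057 probes well above background in wild type on both arrays, 4 (0.0117%) were lower in lu/lu by more than 10-fold on both, the others being probes of Atoh1, 2410021H03Rik and 5430402P08Rik, named here after their values were seen. On array 2, where both probes of Msx3 were well above background in both channels, their log2 ratios differed by 3.76. The source of this gap was not tested.

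Lmx1a, a LIM-homeodomain factor needed to form the roof plate and a marker of cortical hem and midbrain floor, read 361 in wild type and 282 in lu/lu on array 1, and 220 and 271 on array 2 (NM_033652). The wild type samples were the highest and the lowest of the 4, and the lu/lu samples lay between them. The log2 ratios of -0.35 and 0.30 gave a mean of -0.03, with a 95% confidence interval from -0.42 to 0.36 and an adjusted p in limma of 0.927. The arrays differed by 0.65, and 1.80% of all genes tested differed by more.

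**Figure D2:**
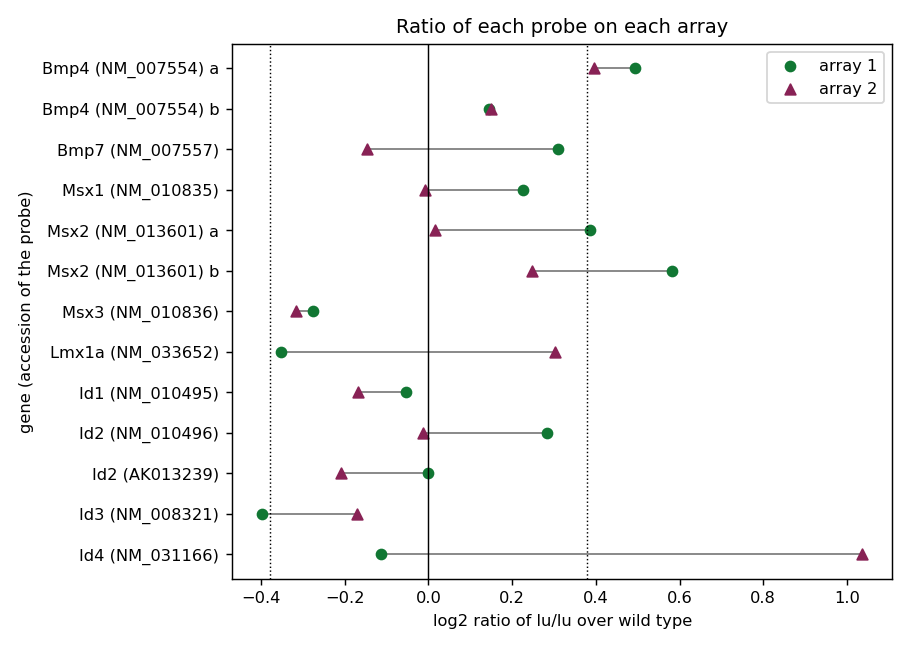
Log2 ratio of lu/lu over wild type at 13 of the 14 probes on array 1 (circles) and array 2 (triangles), with 1.3-fold in either direction as dotted lines. The U62523 probe of Msx3, at -3.96 on array 1 (not well above background in lu/lu) and -4.08 on array 2, lies off the axis and is not drawn. Only the brighter Bmp4 probe lies past 1.3-fold on both arrays, and Id4 shows the widest gap between arrays.

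The 4 Id genes, all BMP-responsive and expressed in progenitors, did not share a direction. Id1 (NM_010495) read 2916 in wild type and 2811 in lu/lu on array 1, and 3010 and 2680 on array 2. Both lu/lu samples lay below both wild type samples, by log2 ratios of -0.05 and -0.17. The mean was -0.11 with a 95% confidence interval from -0.30 to 0.08 and an adjusted p in limma of 0.392.

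Id3 was the member with the largest difference towards lower signal among those tested, when the ratios were not corrected for probe GC content. Its probe (NM_008321, chr4:135700075-135700249, plus strand) covers a stretch of the genome longer than the probe itself, as a probe across a splice junction does.

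Id3 (NM_008321): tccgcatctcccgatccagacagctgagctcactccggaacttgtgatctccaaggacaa

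It read 5843 in wild type and 4435 in lu/lu on array 1, and 5471 and 4857 on array 2. Both lu/lu samples lay below both wild type samples, and the difference passed 1.3-fold on array 1 only (1.32-fold, against 1.13-fold on array 2). The log2 ratios were -0.40 and -0.17, with a mean of -0.28 ± 0.16 (SD, n = 2 arrays). The 95% confidence interval in limma ran from -0.50 to -0.07, and the adjusted p was 0.117. With the trend of the ratios on probe GC content removed, the order of Id1 and Id3 turned. Id1 then had a log2 ratio of -0.26 (adjusted p in limma 0.0819) and Id3 of -0.20 (adjusted p in limma 0.162). The GC content was 28.3% for the Id1 probe and 55% for the Id3 probe.

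Id2 (NM_010496) read 2116 in wild type and 2576 in lu/lu on array 1, and 2470 and 2449 on array 2. The log2 ratios were 0.28 and -0.01 (mean 0.14, adjusted p in limma 0.397), and the genotypes overlapped. Its other probe (AK013239) was dim, at 152 and 152 on array 1 and 217 and 188 on array 2, and its log2 ratios were 0.00 and -0.21. Id4 (NM_031166), the member of the family most tied to neural progenitors, read 563 and 521 on array 1, and 333 and 683 on array 2. The lu/lu sample of array 2 was the highest of the 4 and the wild type sample of the same array the lowest, so the log2 ratio was -0.11 on array 1 and 1.04 on array 2. Its mean of 0.46 had a 95% confidence interval from -0.17 to 1.09 and an adjusted p in limma of 0.286. Only 0.255% of the genes tested differed more between the arrays.

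**Figure D3:**
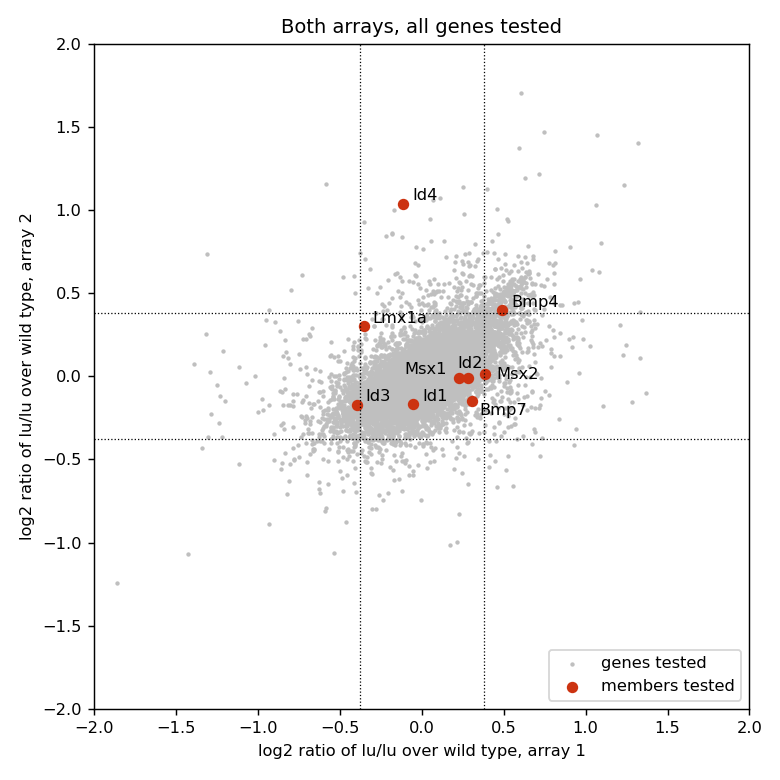
Log2 ratio of lu/lu over wild type on array 1 (x axis) against array 2 (y axis) for the 10600 genes tested (grey, with 3 outside the axes) and the 9 members tested (red), with 1.3-fold as dotted lines. Bmp4 lies past the upper line on both arrays, Id4 lies above all other members on array 2, and Id1 and Id3 lie below 0 on both.

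Beyond the 10 genes, 52 other genes of the pathway were listed by role, of which 46 were well above background in all channels and 24 were tested. Of the 24, 3 were higher by more than 1.3-fold on both arrays (Rgma, Rspo3 and Tcf4) and 2 were lower (Rspo1 and Pax3), and 0 reached an adjusted p under 0.05 in limma, while at an unadjusted p under 0.05 there were 9 higher and 3 lower. Over all genes tested these shares were 2.58% and 0.736% beyond 1.3-fold, and 15.7% and 12.0% at an unadjusted p under 0.05. Their median log2 ratio was 0.20, with 0.15 on array 1 and 0.13 on array 2. Rgma and Pax3 were also on the list of genes the study drew from these arrays, so they are not independent evidence of a direction.

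Of the receptors and co-receptors, 6 of 9 were tested, with 1 higher and 0 lower and a median of 0.18. Rgma, a membrane-anchored BMP co-receptor, read 1604 in wild type and 2163 in lu/lu on array 1, and 1630 and 2862 on array 2. Both lu/lu samples lay above both wild type samples, with log2 ratios of 0.43 and 0.81 and an adjusted p in limma of 0.0575, but its other probe, below the signal minimum, gave -0.13 and -0.11. The receptor genes Acvr2b (0.33 and 0.27), Bmpr2 (0.24 and 0.33) and Bmpr1a (0.06 and 0.10) had smaller log2 ratios above 0 on both arrays. The other probe of Acvr2b gave 0.17 and 0.31. In contrast, the dim other probe of Bmpr1a gave -0.35 and -0.34. The dim other probes of Bmpr2 were also below 0 on both arrays, with -0.52 and -0.004, and -0.14 and -0.15. Of the Smad genes 3 of 6 were tested, with none past 1.3-fold on both arrays and a median of 0.25. Smad4, the shared partner of the receptor-activated Smads, had log2 ratios of 0.31 and 0.21 and Smad5, which BMP receptors activate, 0.24 and 0.25, with an adjusted p in limma of 0.112 for each. The other Smad4 probe that passed the filter had -0.17 and -0.15, in the opposite direction, and with the mean over probes the Smad median was 0.049. Of 14 secreted antagonists and modulators 5 were tested, with none past 1.3-fold on both arrays and a median of 0.18, which was 0.11 on array 1 alone, 0.093 on array 2 alone and 0.092 with the GC trend removed. Fstl1 (0.33 and 0.09) and Bambi (0.04 and 0.16), a pseudoreceptor that is itself induced by BMP, were above 0 on both. None of the other BMP and GDF ligands passed the filter in all channels, and 5 of 6 were well above background.

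The E proteins, which Id proteins bind, were all tested. Tcf4 read 1713 in wild type and 2698 in lu/lu on array 1, and 1878 and 2634 on array 2, log2 ratios of 0.66 and 0.49 (adjusted p in limma 0.051). Both lu/lu samples were above both wild type samples at this probe, while the other Tcf4 probe that passed the filter had 0.04 and 0.27. Tcf12 had log2 ratios of 0.52 and 0.31 (adjusted p in limma 0.0707), and its other probe that passed the filter had 0.21 and 0.35. Its dim probes did not share this direction. They had 0.06 and 0.05, -0.01 and -0.34, -0.07 and -0.12, and -1.76 and -0.56, the last not well above background in lu/lu. Tcf3, the third E protein gene, had -0.17 and 0.01, and its other probe that passed the filter had -0.42 and -0.05.

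Of the other roof plate, hem and choroid plexus genes 6 of 10 were tested, with a median of 0.13, which was -0.07 on array 1 alone. The R-spondins, secreted proteins that strengthen Wnt signalling, went both ways. Rspo1 read 2918 in wild type and 1617 in lu/lu on array 1, and 2453 and 1713 on array 2, with log2 ratios of -0.85 and -0.52 and an adjusted p in limma of 0.0516. Rspo3 read 638 and 971 on array 1 and 523 and 841 on array 2, with 0.61 and 0.69 and an adjusted p in limma of 0.051. For both genes the genotypes did not overlap. Wnt1, a ligand of the dorsal midbrain midline, had log2 ratios of -0.60 and -0.21 (adjusted p in limma 0.1), and Wnt5a had 0.34 and 0.50 (adjusted p in limma 0.064). Of the dorsal progenitor factors 1 of 4 was tested. Pax3, made in the dorsal neural tube and in neural crest, read 497 and 377 on array 1 and 583 and 360 on array 2, with log2 ratios of -0.40 and -0.70 and an adjusted p in limma of 0.0575.

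Several dim genes of the dorsal midline and its neighbours were lower in lu/lu on both arrays, as the U62523 probe of Msx3 was. They were named after their values were seen and were not tested, being below the signal minimum. Wnt3a, a ligand of the hem and roof plate, read 125 in wild type and 50.03 in lu/lu on array 1, and 117 and 53.9 on array 2 (log2 ratios of -1.33 and -1.11). Olig3, a factor of the progenitors next to the roof plate, read 74.5 and 31.8 on array 1 and 99.2 and 48.4 on array 2 (-1.23 and -1.03). Neither gene's genotypes overlapped, and 0.146% of the 23282 genes well above background in all channels were lower by more than 2-fold on both arrays.

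Atoh1, a proneural factor of the most dorsal progenitors, read 91.6 in wild type and 2.84 in lu/lu on array 1, and 83.9 and 3.92 on array 2. It was not well above background in lu/lu on either array, as held for 0.103% of the 34057 probes well above background in wild type on both. Gdf7, a ligand of the roof plate, read 22.6 and 5.66 on array 1 and 15.6 and 2.31 on array 2, and it too was not well above background in lu/lu on either array. Set against the lowest signal that counted as well above background in the lu/lu channels, Atoh1 was at least 14.2-fold lower. Gdf7 was at least 2.96-fold lower by the same floor. For this the arrays, not the channels, were brought to 1 scale, so these bounds are open to dye bias. They are approximate, since a floor at the lowest such signal gives the largest fold. Other dim genes of the same lists did not share the direction: Pax7 had log2 ratios of 0.08 and 0.14, Rspo2 had 0.11 and 0.86, and Ttr, which marks choroid plexus, read 380 and 16.2 on array 1 but 1.77 and 13.6 on array 2.

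**Figure D4:**
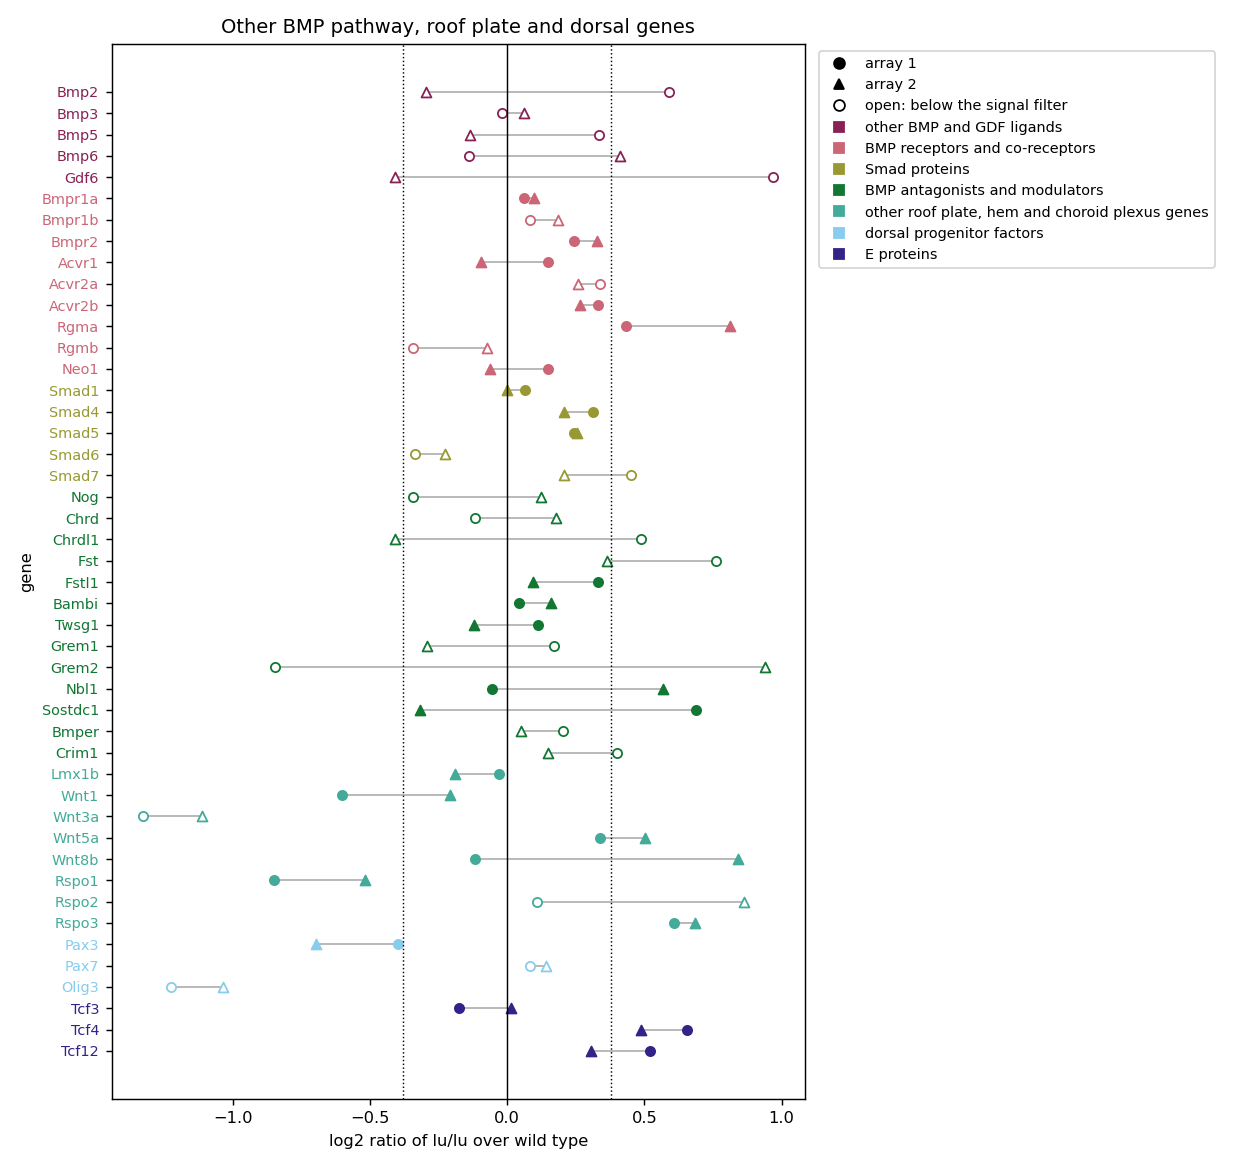
Log2 ratio of lu/lu over wild type on array 1 (circles) and array 2 (triangles) for the 46 pathway, roof plate and dorsal genes well above background in all channels, coloured by list, with 1.3-fold as dotted lines. Filled symbols are the 24 genes tested and open symbols the 22 below the signal filter. Rspo3, Rgma and Tcf4 lie past the right line on both arrays, and Rspo1 and Pax3 past the left line, as do the open symbols of Wnt3a and Olig3.

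Markers of the cell types in the tissue also differed between channels, and their part in the results above was not tested. Of 11 brain neuroepithelium genes 10 were tested, with a median log2 ratio of 0.31 (0.26 on array 1 and 0.45 on array 2) and a summed signal of 20621 and 17956 in wild type and of 21097 and 25924 in lu/lu. Sox2, Otx2 and Six3 were among those higher by more than 1.3-fold on both arrays, Sox2 being on the study's own list. En1, which marks the junction of midbrain and hindbrain, was not well above background in any channel. It has 1 probe on the array, and whether that probe can report En1 was not tested. Lhx2, a factor of the forebrain and eye field, read 2070 in wild type on array 1 but 1196 on array 2, against 1828 and 2177 in lu/lu. The wild type sample of array 2 was thus the lowest of the 4 for Lhx2, as it was for Id4, Lmx1a, Wnt8b (703 and 320 in wild type, 647 and 572 in lu/lu) and Rspo2. It was also the lowest for Sox1, Nes and Six3. In the same list, the wild type sample of array 1 was the lowest for Sox2, Sox3, Pax6 and Otx2, and the lu/lu sample of array 1 for Fabp7. The share of all genes with this pattern was not computed. Lhx2, Wnt8b, Rspo2, Sox1, Nes, Sox3, Pax6 and Fabp7 were named after their values were seen. So were the surface ectoderm genes below other than Trp63. Of 7 hindbrain genes none was tested and 2 were well above background, and Hoxa2 and Hoxb1 were not well above background in any channel.

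The median of the surface ectoderm genes was higher on array 1 than on array 2. The log2 ratios of Bmp4, Bmp7, Msx1, Msx2, Id1 and Id2 were too, while those of Lmx1a, Id3 and Id4 were lower on array 1. The medians of the mesenchyme and neural crest genes and of the endothelial genes were also higher on array 1. The share of all genes with this order is not given here. With 2 arrays, such likeness of pattern cannot tie a member to a cell type. Of 10 surface ectoderm genes 7 were tested, with a median log2 ratio of 0.46 on array 1 and -0.18 on array 2. None was past 1.3-fold in 1 direction on both. The summed signal of the 10 genes was 9431 and 12928 in wild type and 13754 and 10351 in lu/lu. Krt18, a keratin of simple epithelia, read 4696 and 7581 on array 1 and 6990 and 5536 on array 2, while Tfap2c (-0.13 and 0.60), Krt5 (0.20 and 0.29) and Trp63 (0.03 and 0.16) had higher log2 ratios on array 2. Of 12 mesenchyme and neural crest genes 8 were tested, with a median of -0.13 (-0.06 and -0.18), none past 1.3-fold on both arrays, and a summed signal of 12492 and 11673 in wild type and of 12617 and 10223 in lu/lu. Tfap2b (0.98 and 0.22) was higher on both arrays, and Col3a1 (-0.17 and -0.47), Foxc1 (-0.21 and -0.35) and Pdgfra (-0.15 and -0.33) were lower. Of the 11 genes well above background, 1 was higher by more than 1.3-fold on both arrays, Alx1 (0.74 and 0.75). In the other direction 1 was lower, Sox10 (-0.39 and -0.65). The shares over all genes well above background were 2.52% and 2.07%. Alx1 and Sox10 were not tested and were named after their values were seen.

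Id1 and Id3 were lower on both arrays, as were 35.4% of all genes tested. With 2 arrays, a shared direction cannot tie either gene to a cell type. Most endothelial genes were also lower on both arrays, the exception in the list being Pecam1 (0.04 and -0.34). Of 12, 4 were tested, with a median of -0.54 (-0.39 and -0.63), and Emcn and Icam2, both on the study's own list, were lower by more than 1.3-fold on both arrays. Over the 12 genes, all well above background, 8 were lower by more than 1.3-fold on both arrays, against 2.07% of genes well above background (2.52% were higher), and the summed signal was 5884 and 6383 in wild type and 4859 and 4474 in lu/lu. Cldn5 had log2 ratios of -0.28 and -0.80 and Egfl7 of -0.16 and -0.41. Primitive erythrocyte genes differed mainly on array 1, with a median of -0.90 there and of 0.12 on array 2 over 5 of 9 genes tested, and a summed signal of 466778 and 194194 in wild type and of 250350 and 237237 in lu/lu. Among these, Alas2 was lower on both arrays (-1.20 and -0.15).

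Array 1 had 36936 gene spots well above background in wild type and 43546 in lu/lu, and array 2 had 44100 and 44318. The mutated gene, Zbtb16, read 433 in wild type and 172 in lu/lu on array 1, and 546 and 211 on array 2. Its log2 ratios were -1.33 and -1.37, so it was lower in lu/lu on both arrays. Zbtb16 was also on the study's own list. Both arrays lay on 1 slide, and with only these arrays the ratios are of limited precision.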

How the data were processed

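RNA of 1 wild type (Cy3) and 1 lu/lu sample (Cy5) was compared on each of 2 arrays. The authors scanned the arrays with Feature Extraction 10.7.3.1 and deposited, per spot, the processed intensity after background subtraction and LOWESS dye normalization, and its Cy5 over Cy3 ratio as log10. The deposited series table gives these ratios as log2 values, rounded to within 0.005. Probe positions are in mm9, as the deposited annotation gives them, and no annotation of that build was used here, so exon and UTR positions of the probes are not stated. The members and the gene lists were chosen with earlier results of these data known.

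Control spots and outlier spots (137 and 126 gene spots) were excluded, replicate spots of a probe were averaged as log2 signals, and the brightest probe stood for its gene. Genes with a processed signal above 200 and a signal-to-noise ratio of at least 5 in all channels were tested with limma 3.58.1 (R 4.3.3), using an intercept in lmFit, eBayes and Benjamini-Hochberg adjustment over 10600 genes. This has 1 residual degree of freedom and a prior of 4.63, so it rests on the variance pooled across genes. An exact sign-flip test of 2 arrays cannot go below p = 0.5 (two-sided). Bounds for dim probes used the lowest signal well above background per channel after Aquantile normalization between the arrays. This left the ratio of the channels on each array unchanged. All members and their probes were named, and Zbtb16 as the mutated gene. From each list, the genes beyond 1.3-fold on both arrays were named. Up to 4 in all, so were the tested genes with the largest mean ratio of 1 sign. Pax7, Ttr, Tcf3, En1, Pecam1, Hoxa2 and Hoxb1 were named outside this rule. Other genes named otherwise are marked as such. A gene that this rule selects is not reported here.

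Alternatives were normexp (offset 50) with loess or with centring, the deposited log2 table, other filters, the mean over probes, single probes, the GC trend removed (lowess, span 0.67), eBayes with trend, the channels unpaired, 1.5-fold, and each array alone. Python 3.11.15 with statsmodels 0.14.6, scipy 1.17.1, pandas 2.3.3, numpy 2.4.6 and matplotlib 3.10.9, and version 1.17.8 of data.table in R, did the rest.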

Additional observations from a re-analysis of the deposited data

How the results depend on the processing

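With 2 arrays and the same dye orientation, single genes were rarely called by limma. Bmp4 had a log2 ratio from 0.15 to 0.49 over the 11 alternatives with a test. Its adjusted p in limma was 0.0188 with normexp and centring, 0.0346 with the GC trend removed and 0.0447 with trend in eBayes, so that 1 member was called in each, against 0 elsewhere, and the highest adjusted p was 0.537. The count of members higher by 1.3-fold, 1 as reported, was 0 with the mean over probes, 0 with the GC trend removed and 0 at 1.5-fold. With 1 array left out it was 2 either way, and the lower count was 0 to 1. With 1 array left out, the log2 ratio ran from -0.15 to 0.31 for Bmp7, from -0.0083 to 0.23 for Msx1, from -0.35 to 0.30 for Lmx1a, from -0.012 to 0.28 for Id2 and from -0.11 to 1.04 for Id4, and the median of the other roof plate, hem and choroid plexus genes from -0.074 to 0.16, so each of these turned with 1 array. In a fit without the array as a replicate block, the count of members called stayed at 0 and Bmp4 had an adjusted p in limma of 0.0558; the pairing is that of the channels on an array, and it changed no call of a member. Over all genes, the counts of 274 higher and 78 lower became 455 and 120 with normexp and centring, 587 and 482 with genes well above background, 1696 and 2178 without a filter, and 41 and 12 at 1.5-fold, and with 1 array left out 477 to 875 and 208 to 592. In the pathway lists the higher count of 3 became 5 to 6 with 1 array left out, and the lower count of 2 became 1 with normexp and loess, 4 with genes well above background, 6 without a filter and 2 to 3 with 1 array left out. In the cell type lists the higher count of 4 became 2 with the GC trend removed and 10 with either array left out, and the lower count of 2 became 10 with genes well above background, 13 without a filter and 6 to 8 with 1 array left out. The causes were not tested. No setting moved the median of all genes tested by more than 0.03 on the log2 scale. Genes below the signal filter were tested only under the other filters.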
